A study of Mus musculus with 12 samples.

Results

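The genes described here are 44 genes of the cell cycle, chosen by name from the 24421 gene symbols in the deposited matrices: 14 genes of S phase, 5 regulators of the step from G1 into S phase, and 25 genes of mitosis. All 44 symbols were found, and where a symbol had several transcripts (16 of the 44) the transcript with the highest total count over all libraries was used. They were measured by RNA-seq of whole kidneys from male mice at 6 weeks old, C57BL/6 by the labels and on a C57BL/6J background by the study's methods, in 4 groups with 3 libraries each: unoperated mice (baseline) and mice with renal ischemia-reperfusion injury (IR), each of them WT or Tet2-/-. The study describes the Tet2-/- mice as knockouts of Tet2, an enzyme that oxidizes 5-methylcytosine in DNA. A knockout of this kind affects every cell, including blood cells. The Tet2 transcript was not lower in the baseline libraries with this label, as given below. In the IR groups the pedicle of the right kidney was clamped and then released, the left kidney was removed, and tissue was taken a day later. The baseline mice had no operation, so an effect of IR cannot be told apart from an effect of surgery and of removing the other kidney.

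A cell that divides passes from G1 into S phase, in which its DNA is copied, and then through G2 into mitosis, in which the copies are pulled apart. The MCM2-7 helicase is loaded on DNA by Cdc6 and Cdt1 and opens the double helix, and E2F transcription factors switch on these genes as cells enter S phase. Genes of mitosis are transcribed later, in G2, and many of them carry a short promoter element named CHR. Most tubule cells of an adult kidney are not dividing, and after ischemic injury surviving tubule cells re-enter the cycle, so S phase and mitosis genes are widely used to follow repair.

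The promoters of the 2 classes hold different letters. RefSeq promoters on GRCm38.p6, each with 250 bases before and 50 bases after a gene's start, were matched by symbol for 34 of the 44 genes. The letters of an E2F site, searched on both strands as TTTCCCGC, TTTGGCGC, TTTCGCGC or TTTGCCGC, were in 6 of 12 S phase promoters (Mcm3, Mcm5, Mcm6, Mcm7, Cdc6 and Cdt1), in 1 of 3 G1/S promoters (Cdk2) and in 1 of 19 mitosis promoters (Cdk1), against 2.6% of all 27025 genes with a promoter. The CHR letters TTTGAA were in 14 of 19 mitosis promoters, in 1 of 12 S phase promoters (Mcm2) and in 0 of 3 G1/S promoters, against 20.2% of all genes. CCAAT letters were in 17 of 19 mitosis promoters and 8 of 12 S phase promoters, against 41.1% of all genes. A match is a description of the letters and no match says only that these letters are not in that window. Of these, 5 promoters are shown, because they belong to the genes at the top of the IR response or to the usual markers of cycling cells: the 200 bases before the start, 5′ to 3′ on the gene's strand, with E2F and CHR letters in capitals. Mcm5 lies on the plus strand (chr8:75109309-75109508) and the others on the minus strand, Mcm6 at chr1:128359706-128359905, Cdk1 at chr10:69352913-69353112, Top2a at chr11:99024190-99024389 and Mki67 at chr7:135716380-135716579. In Mcm5, and in the first stretch of capitals in Mcm6, 2 E2F sites on opposite strands overlap. Cdk1 holds both kinds, and the second stretch in Top2a is CHR on the opposite strand.
Mcm5: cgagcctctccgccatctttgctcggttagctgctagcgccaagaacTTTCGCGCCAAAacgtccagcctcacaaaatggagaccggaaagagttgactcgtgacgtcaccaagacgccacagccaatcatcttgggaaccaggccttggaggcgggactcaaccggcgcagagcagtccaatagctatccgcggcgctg
Mcm6: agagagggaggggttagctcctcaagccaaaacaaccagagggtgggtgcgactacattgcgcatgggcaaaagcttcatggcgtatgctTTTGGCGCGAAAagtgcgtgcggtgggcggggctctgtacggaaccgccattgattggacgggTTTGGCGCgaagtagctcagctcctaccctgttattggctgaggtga
Cdk1: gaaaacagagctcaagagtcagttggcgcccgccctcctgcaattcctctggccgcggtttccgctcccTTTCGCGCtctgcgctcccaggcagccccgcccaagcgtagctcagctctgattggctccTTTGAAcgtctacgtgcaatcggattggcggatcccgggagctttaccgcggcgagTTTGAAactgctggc
Top2a: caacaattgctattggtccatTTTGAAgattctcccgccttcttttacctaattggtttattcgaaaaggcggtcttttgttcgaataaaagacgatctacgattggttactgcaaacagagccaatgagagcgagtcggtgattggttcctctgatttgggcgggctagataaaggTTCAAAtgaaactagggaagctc
Mki67: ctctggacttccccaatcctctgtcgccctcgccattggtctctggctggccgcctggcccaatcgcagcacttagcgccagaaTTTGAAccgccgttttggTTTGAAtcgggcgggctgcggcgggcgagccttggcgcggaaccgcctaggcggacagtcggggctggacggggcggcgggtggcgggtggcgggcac

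The libraries held between 51007366 and 107969888 counts on the transcripts used, and no 2 libraries of a group agreed within sampling noise. Tet2 itself was at 9.15, 6.25 and 7.33 FPKM (fragments scaled to transcript length and to the depth of the library) in the WT baseline libraries and at 9.24, 16.6 and 10.3 FPKM in those labelled Tet2-/-. The Tet2 transcript was not lower there (log2 fold change 0.76, standard error 0.24, adjusted p = 0.321), so directions between the genotypes follow the labels. After IR it was at 5.72 ± 3.13 FPKM (SD, n = 3) in WT and 2.53 ± 0.723 FPKM (SD, n = 3) in libraries labelled Tet2-/-. Kidney markers were present in every library, with proximal tubule markers summing to between 629 and 3856 FPKM. Adipocyte markers summed to 44.5 and 131 FPKM in WT baseline replicates 2 and 3 and to 164 FPKM in Tet2-/- IR replicate 3, against 10.3 FPKM or less in the other 9 libraries, and counts of called genes that rest on these libraries are also given without them. The 3 libraries of a group are taken as separate samples, and if they are not from separate mice the p-values measure technical spread only.

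At baseline the cell cycle genes were low in both genotypes, and mitosis genes were lower than S phase genes. The median of the group means was 1.78 FPKM for S phase genes and 0.219 FPKM for mitosis genes in WT kidneys, and 1.78 and 0.340 FPKM in Tet2-/- kidneys. Cyclin D1 (Ccnd1), which carries growth signals into G1, was the highest of all 44 genes at 38.6 ± 3.47 FPKM (SD, n = 3) in WT, and Pcna, the sliding clamp of DNA polymerase, was the highest S phase gene at 13.9 ± 1.94 FPKM (SD, n = 3). Cdc25c, a phosphatase that activates Cdk1, was the lowest in WT at 0.0173 ± 0.0170 FPKM (SD, n = 3) and was too low to be tested in the comparisons that use WT baseline libraries in a pair of groups. A median mitosis gene rested on 65.3 counts per WT baseline library and a median S phase gene on 508.2. The median standard error of the log2 IR effect in WT was 0.41 for mitosis genes and 0.21 for S phase genes. In a whole kidney, a change in the number of cycling cells and a change in RNA per cell cannot be told apart.

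**Figure D1:**
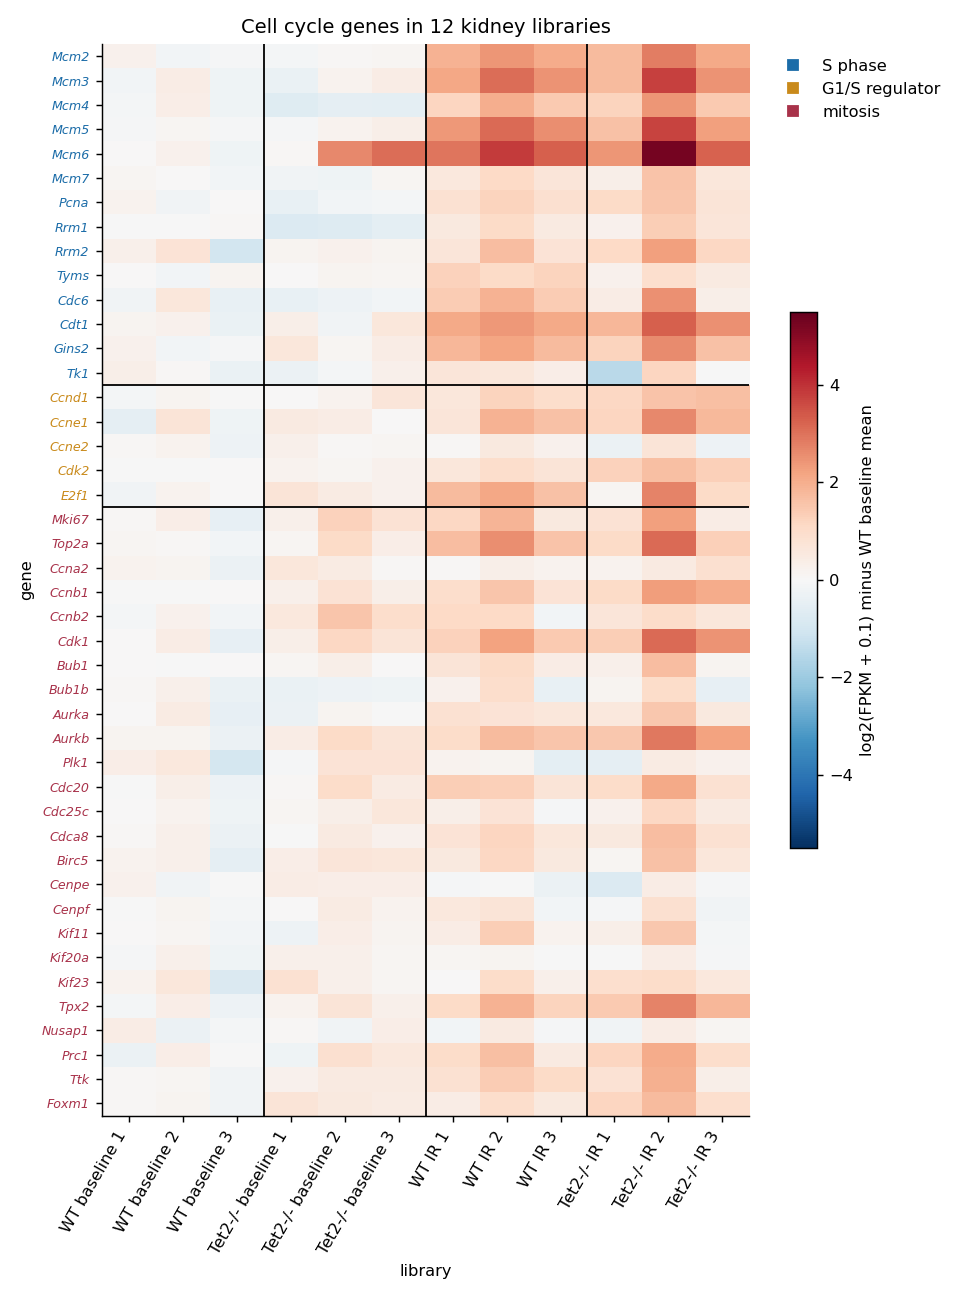
Heatmap of the 44 genes (rows, coloured by class) in the 12 libraries (columns), as log2(FPKM + 0.1) minus the mean of the WT baseline libraries. Red marks higher and blue lower values; Mcm6 and most other Mcm genes are red in the IR libraries, Tet2-/- IR replicate 2 is red for most genes, and Mcm6 is also strongly red in Tet2-/- baseline replicates 2 and 3.

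The first comparison asked whether IR changes cell cycle genes in WT kidneys. After IR, 12 of the 43 genes tested were higher and none was lower: 8 of 14 S phase genes, 1 of 5 G1/S regulators and 3 of 24 mitosis genes passed (edgeR's quasi-likelihood test, called when the log2 fold change exceeded 1 and the adjusted p was under 0.05). Over all 16015 genes tested 1.46% were higher and 0.887% lower by the same rule. With DESeq2, 20 genes were higher and 0 lower, against 3.06% higher and 3.07% lower over all genes. The median log2 fold change was 1.73 for S phase genes and 1.002 for mitosis genes, against −0.03 for all genes. By TMM-scaled counts, all 3 IR libraries lay above all 3 baseline libraries for 31 of the 43 genes, 13 of 14 in S phase, 3 of 5 in G1/S and 15 of 24 in mitosis, and below for 0, against 14.8% above and 14.5% below over all genes. Proximal tubule markers summed to 3336 to 3424 FPKM at baseline and 1662 to 2321 FPKM after IR, and neutrophil markers to 0.681 to 2.48 and 4.09 to 9.53 FPKM, both without overlap. Lymphocyte markers summed to 1.62 to 2.03 and 0.356 to 0.809 FPKM and tubular injury markers, 5 of 7 of them called higher, to 244 to 515 and 1647 to 7849 FPKM, also without overlap. Macrophage sums overlapped (33.2 to 47.2 and 29.6 to 53.3 FPKM), with 2 of 8 markers called higher (Cd68 and Cd14) and 5 of 8 with a log2 fold change below 0, Csf1r the lowest at −1.21. Their part in the cell cycle genes was not tested. At an unadjusted p under 0.05, 30 of the 43 genes (69.8%) passed, against 22.7% of all genes. With the replicate number as a block, 20 genes were higher (9 S phase, 2 G1/S and 9 mitosis genes), adding Aurkb, Bub1, Ccne1, Cdc20, Cdc6, Cdk1, Mki67 and Tpx2, while 2.67% of all genes were higher. Without WT baseline replicate 1, 5 genes passed against 0.276% of all genes, and without replicate 3, 4 genes against 0.253%, all of them in S phase. Without both replicates 2 and 3, which were high in adipocyte markers, 0 genes passed with 1 baseline library left, taken to vary like the IR libraries. In that fit only 1 of all 16526 genes passed, so its count of 0 says nothing about these genes, and 23 of 44 (52.3%) had an unadjusted p under 0.05, as did 1989 of all genes. The medians there were 1.67 for S phase and 1.10 for mitosis.

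The MCM helicase held the largest changes, in Mcm6 and Mcm5. Mcm6, a subunit of the helicase, was at 0.231, 0.276 and 0.172 FPKM in the WT baseline libraries and at 2.40, 4.58 and 3.07 FPKM in the WT IR libraries. The groups lay far apart, at a 14.2-fold change (log2 3.82, standard error 0.31, adjusted p = 0.00713). Mcm5, another subunit, went from 1.03, 1.17 and 1.02 FPKM to 6.09, 9.91 and 6.87 FPKM (log2 2.77, standard error 0.21, adjusted p = 0.00567). Mcm3 went from 0.850, 1.29 and 0.782 FPKM to 4.52, 8.71 and 5.73 FPKM, and Mcm2 from 2.20, 1.69 and 1.79 FPKM to 7.40, 10.5 and 7.97 FPKM. Neither gene overlapped between the groups, with log2 fold changes of 2.64 and 2.12. Mcm4 (log2 1.54, adjusted p = 0.0328) also passed, while Mcm7, already at 6.60 FPKM at baseline, stood at log2 0.74 (standard error 0.16) with an adjusted p of 0.0567. Of the 6 helicase subunits, 5 passed in WT.

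Of the factors that load and complete the helicase, Cdt1 rose (log2 2.20, standard error 0.21, adjusted p = 0.00842). Gins2, part of the GINS complex that activates the helicase, was at 1.84, 1.38 and 1.47 FPKM before and 5.71, 7.36 and 5.40 FPKM after IR (log2 1.91, adjusted p = 0.0109). Cdc6 was at 0.0970, 0.237 and 0.0650 FPKM before and 0.487, 0.746 and 0.492 FPKM after IR. Its FPKM groups did not overlap, but its log2 fold change of 2.05 carried a standard error of 0.49 and an adjusted p of 0.0767.

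Among the genes that supply nucleotides 1 of 4 passed. Tyms, thymidylate synthase, went from 2.48, 2.18 and 2.69 FPKM to 5.93, 5.16 and 5.85 FPKM and passed (log2 1.15, standard error 0.16, adjusted p = 0.0186). The Tyms transcript used here has a non-coding RefSeq label. The second Tyms transcript had near the same values, 2.48, 2.17 and 2.665 FPKM at baseline and 5.895, 5.15 and 5.82 FPKM after IR. Rrm2, the regulated subunit of ribonucleotide reductase, was at 2.40, 3.39 and 0.936 FPKM at baseline and 3.18, 6.61 and 3.42 FPKM after IR, and its groups overlapped. Rrm1, the partner subunit, had a log2 fold change of 0.68 (adjusted p = 0.084), and Tk1, thymidine kinase, went from 9.01, 7.60 and 5.67 FPKM to 11.6, 11.3 and 9.52 FPKM (log2 0.48, adjusted p = 0.19). Pcna was at 15.9, 12.01 and 13.9 FPKM at baseline and 25.1, 32.8 and 25.8 FPKM after IR, and passed on its adjusted p (0.0333) but not on its log2 fold change of 0.94.

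Among the G1/S regulators E2f1, an activating E2F factor, rose from 0.577, 0.785 and 0.696 FPKM to 2.48, 3.34 and 2.32 FPKM (log2 1.92, standard error 0.22, adjusted p = 0.0108). Ccnd1 was at 35.3, 42.2 and 38.3 FPKM before and 59.5, 89.2 and 76.3 FPKM after IR, without overlap, at a log2 fold change of 0.90 and an adjusted p of 0.0513. Cyclin E1 (Ccne1), which activates Cdk2, was at 0.109, 0.390 and 0.154 FPKM and then at 0.371, 1.02 and 0.793 FPKM, and its groups overlapped. Cdk2 went from 3.52, 3.48 and 3.58 FPKM to 5.43, 6.95 and 5.81 FPKM (log2 0.72, adjusted p = 0.0542). Cyclin E2 (Ccne2) was at 1.07, 1.20 and 0.842 FPKM and at 1.06, 1.53 and 1.21 FPKM, with overlap.

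In mitosis Top2a, the topoisomerase that untangles chromosomes, went from 0.129, 0.126 and 0.0910 FPKM to 0.593, 1.17 and 0.531 FPKM (log2 2.66, standard error 0.36, adjusted p = 0.0183). Ttk, a kinase of the spindle checkpoint, went from 0.0300, 0.0370 and 0.0110 FPKM to 0.127, 0.230 and 0.159 FPKM (log2 2.66, standard error 0.50, adjusted p = 0.0415). Cyclin B1 (Ccnb1), which drives entry into mitosis with Cdk1, went from 0.0620, 0.0610 and 0.0650 FPKM to 0.219, 0.363 and 0.174 FPKM (log2 1.94, standard error 0.38, adjusted p = 0.0469). These 3 passed with no library above 1.17 FPKM, and they kept the call in 10 of 15 (Top2a), 8 of 15 (Ttk) and 5 of 15 (Ccnb1) alternative settings.

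The proliferation marker Mki67 was at 0.133, 0.189 and 0.0650 FPKM at baseline and 0.398, 0.716 and 0.227 FPKM after IR, without overlap (log2 1.72, standard error 0.50, adjusted p = 0.113). Cdk1 was at 0.164, 0.250 and 0.0900 FPKM and then 0.520, 1.11 and 0.599 FPKM, also without overlap (log2 2.08, adjusted p = 0.0644). Foxm1, a factor that switches on G2 and mitosis genes, was at 0.388, 0.416 and 0.313 FPKM and then 0.521, 0.820 and 0.585 FPKM (log2 0.72, adjusted p = 0.167). These 3 thus missed the threshold although no library of one group reached the other. Cyclin A2 (Ccna2) was at 2.38, 2.35 and 1.63 FPKM and 2.17, 2.63 and 2.44 FPKM, and the kinase Plk1 at 0.767, 0.904 and 0.247 FPKM and 0.663, 0.637 and 0.367 FPKM, so both overlapped. The other mitosis genes ran from −0.27 (Cenpe, a kinetochore motor) to 2.07 (Tpx2, a spindle assembly factor) on the log2 scale, and Aurkb and Bub1, kinases that check the attachment of chromosomes, missed the threshold with adjusted p of 0.0521 and 0.0533.

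**Figure D2:**
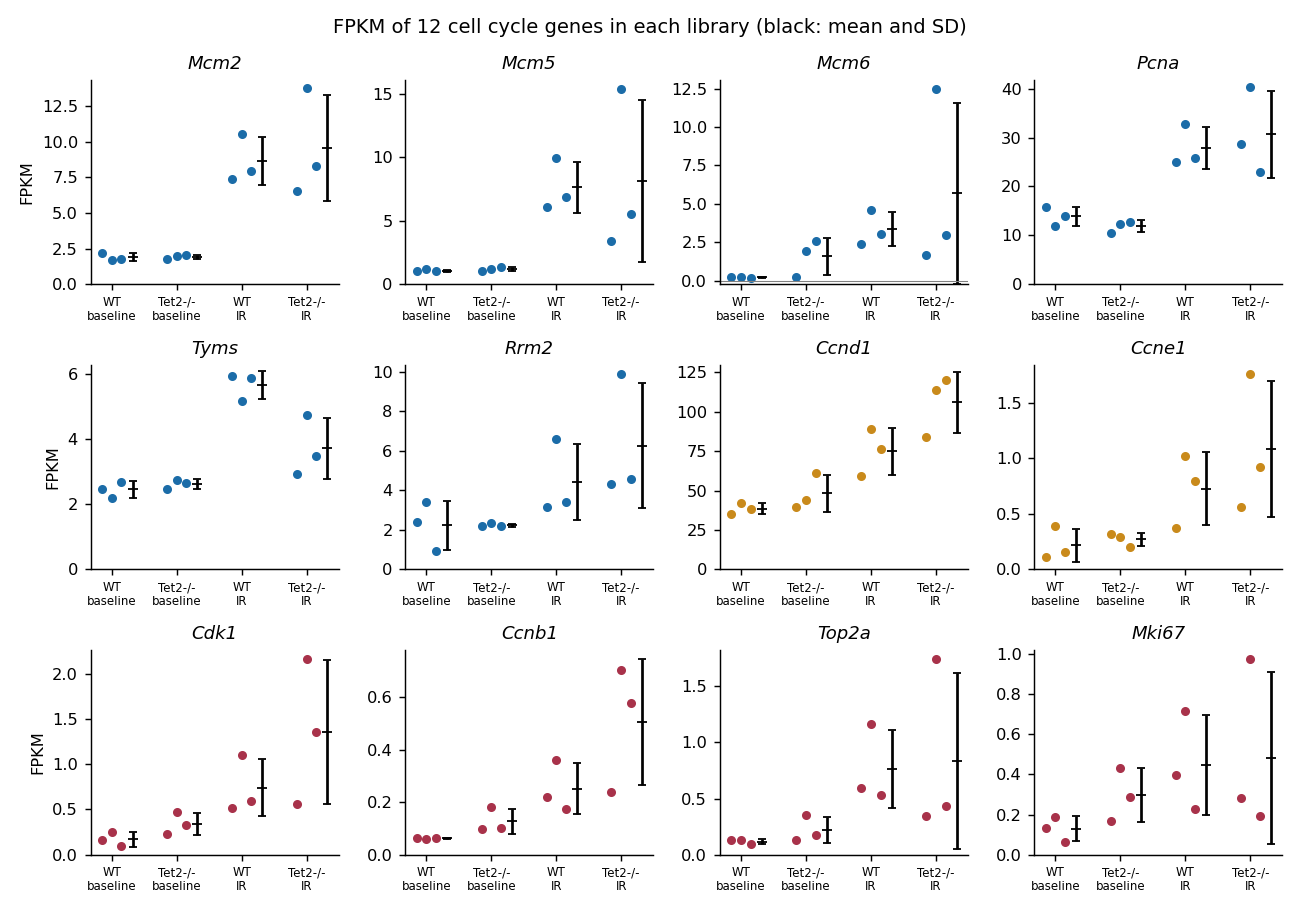
FPKM (y axis, one scale per panel) of 12 cell cycle genes in each library of the 4 groups (x axis), with the mean and SD in black beside each group. S phase genes (blue) are separated between WT baseline and WT IR libraries except for Rrm2. Tet2-/- IR replicate 2 is the highest library in most panels, and Mcm6 is already raised in Tet2-/- baseline replicates 2 and 3.

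The same question was asked of the libraries labelled Tet2-/-. After IR, 15 of 44 genes were higher and none was lower: 10 of 14 S phase genes, 1 of 5 G1/S regulators and 4 of 25 mitosis genes. Over all 16359 genes tested 12.7% were higher and 11.6% lower, beside 71.4% of S phase genes and 16.0% of mitosis genes higher. The 0 lower genes were 0 with DESeq2 as well, and 20 of the 44 genes (45.5%) had an unadjusted p under 0.05 in either direction, against 51.8% of all genes. The median log2 fold change was 1.40 for S phase genes and 0.59 for mitosis genes, against 0.04 for all genes. By TMM-scaled counts, IR libraries lay above baseline libraries without overlap for 19 genes, 10 in S phase, 3 in G1/S and 6 in mitosis, and below for 2 (Cenpe and Kif20a), against 29.5% above and 27.3% below over all genes. The 2 IR comparisons share no library.

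One library weighed on these values. Tet2-/- IR replicate 2 was the highest of its group for 42 of the 44 genes, and without it 7 genes were higher (5 S phase, 1 G1/S and 1 mitosis gene) and 2 were lower, Cenpe and Cenpf, against 11.9% of all genes higher and 12.3% lower, with medians of 0.94 for S phase and 0.01 for mitosis. Without Tet2-/- baseline replicate 1, 9 genes were higher, against 10.8% of all genes. In WT, IR replicate 2 was the highest of its group for 38 of 44 genes. Tubular injury markers summed to 25907 FPKM in Tet2-/- IR replicate 2, against 14287 and 11972 FPKM in replicates 1 and 3, and to 7849 FPKM in WT IR replicate 2, against 1647 and 5906 FPKM. Most of these sums was Spp1, and the single markers did not share 1 order: in Tet2-/- IR libraries Havcr1, Krt20 and Sox9 were highest in replicate 3 and Lcn2 in replicate 1, and in WT IR libraries Havcr1 and Krt20 were highest in replicate 3. Their part in the cell cycle genes was not tested. Markers of erythroid precursors, which are dividing blood cells, summed to 65.2 to 125 FPKM in Tet2-/- baseline and 173 to 191 FPKM in Tet2-/- IR libraries, without overlap, but the list went both ways: Tfrc was called higher (log2 1.02), and Klf1, a factor of erythroid precursors, lower (log2 −1.65), and their part in the counts was not tested. In WT the sums overlapped, at 49.3 to 173 FPKM before and 56.9 to 204 FPKM after IR. Without Tet2-/- IR replicate 3, the library high in adipocyte markers, 15 genes were higher. With all libraries of this comparison 7 of 7 neutrophil markers tested and 3 of 8 macrophage markers were higher, and 1 macrophage marker (Csf1r, log2 −2.69) and 5 of 8 proximal tubule markers were lower. Tubular injury markers were called higher for 6 of 7, and 2 of 5 thick ascending limb and 2 of 8 lymphocyte markers were called lower. The part of all these markers was not tested.

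Mcm3 was the S phase gene with the largest change among those called, from 0.726, 1.11 and 1.31 FPKM to 3.37, 14.2 and 5.79 FPKM (log2 2.59, standard error 0.50, adjusted p = 0.00526). Mcm5 went from 1.01, 1.23 and 1.38 FPKM to 3.42, 15.4 and 5.51 FPKM (log2 2.44, standard error 0.49, adjusted p = 0.00641). Mcm2 went from 1.76, 1.96 and 2.05 FPKM to 6.58, 13.8 and 8.34 FPKM (log2 2.04, standard error 0.25, adjusted p = 0.000749). For each of them all IR libraries lay above all baseline libraries. These 3 genes, with Mcm4 and Cdt1, passed in all 15 alternative settings run for this comparison. Gins2 went from 2.45, 1.68 and 2.10 FPKM to 3.77, 9.78 and 4.99 FPKM and passed (log2 1.29, adjusted p = 0.0216).

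Pcna rose from 10.5, 12.4 and 12.8 FPKM to 28.6, 40.3 and 23.0 FPKM (log2 1.09, standard error 0.18, adjusted p = 0.00298). Rrm2 rose from 2.19, 2.33 and 2.20 FPKM to 4.31, 9.89 and 4.55 FPKM (log2 1.20, adjusted p = 0.0149), and Rrm1 rose as well (log2 1.27, adjusted p = 0.00681). Cdc6 passed at log2 2.29 (adjusted p = 0.0375) from 0.0680, 0.0850 and 0.0990 FPKM to 0.196, 1.18 and 0.178 FPKM, where replicate 2 stood far above the rest. Tk1 was at 5.86, 6.71 and 8.84 FPKM at baseline and at 2.52, 16.4 and 7.12 FPKM after IR, so it was both lower and higher than baseline within the group. Tyms overlapped between 2.46, 2.75 and 2.65 FPKM and 2.93, 4.75 and 3.47 FPKM in TMM-scaled counts (log2 0.24, adjusted p = 0.324), although in FPKM the IR libraries were all higher.

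Of the G1/S regulators Ccne1 passed, from 0.320, 0.289 and 0.205 FPKM to 0.564, 1.76 and 0.924 FPKM (log2 1.73, standard error 0.44, adjusted p = 0.0158). Ccnd1 went from 39.4, 43.8 and 61.4 FPKM to 84.2, 113 and 120 FPKM, and Cdk2 from 4.09, 3.79 and 4.16 FPKM to 8.66, 11.2 and 8.99 FPKM. Both were separated between groups, with adjusted p of 0.0213 and 0.00117, but their log2 fold changes of 0.88 and 0.999 did not exceed 1. E2f1 was at 1.19, 0.955 and 0.833 FPKM and then 0.741, 5.12 and 1.51 FPKM, with overlap and an adjusted p of 0.21. Ccne2 overlapped as in WT, at 1.26, 1.08 and 1.13 FPKM and 0.814, 1.74 and 0.817 FPKM.

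In mitosis 4 genes passed. Tpx2 went from 0.126, 0.223 and 0.141 FPKM to 0.432, 1.19 and 0.597 FPKM (log2 1.89, standard error 0.43, adjusted p = 0.0104). Ccnb1 went from 0.0980, 0.180 and 0.101 FPKM to 0.239, 0.703 and 0.578 FPKM (log2 1.72, standard error 0.49, adjusted p = 0.0244). Cdk1 went from 0.225, 0.468 and 0.326 FPKM to 0.558, 2.16 and 1.35 FPKM (log2 1.71, adjusted p = 0.0282), and Aurkb passed at log2 1.57 (adjusted p = 0.0243). The FPKM of none of these 4 overlapped between the groups. Mki67 at 0.169, 0.434 and 0.288 FPKM and then 0.282, 0.975 and 0.193 FPKM did overlap, as did Top2a at 0.129, 0.350 and 0.177 FPKM and then 0.340, 1.74 and 0.431 FPKM (adjusted p = 0.0804). Ccna2 was at 3.30, 2.85 and 2.21 FPKM and 2.43, 2.996 and 3.92 FPKM, Plk1 at 0.533, 1.02 and 1.03 FPKM and 0.375, 0.822 and 0.680 FPKM, and both overlapped. Foxm1 went from 0.667, 0.584 and 0.540 FPKM to 0.976, 1.48 and 0.791 FPKM without overlap in FPKM (log2 0.59, adjusted p = 0.101), and Ttk from 0.0460, 0.0770 and 0.0770 FPKM to 0.116, 0.390 and 0.0590 FPKM with overlap. The other mitosis genes had log2 fold changes from −0.92 (Cenpe) to 1.43 (Bub1).

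Side by side, 7 genes were called in both genotypes (Ccnb1, Cdt1, Gins2, Mcm2, Mcm3, Mcm4 and Mcm5), 5 in WT without being called in Tet2-/- (E2f1, Mcm6, Top2a, Ttk and Tyms) and 8 in Tet2-/- without being called in WT (Aurkb, Ccne1, Cdc6, Cdk1, Pcna, Rrm1, Rrm2 and Tpx2). A call in one genotype and not in the other does not show a difference between them, and with the replicate block Mcm6 and Top2a were also called in Tet2-/- (17 genes in all), and Aurkb, Ccne1, Cdc6, Cdk1 and Tpx2 in WT. The difference itself was tested with an interaction term of genotype and IR in a fit of all 12 libraries, where a gene passed if its adjusted p was under 0.05. One of the 44 genes passed, Tyms, and 0 passed in the other direction, against 5.39% lower and 3.79% higher of all 16741 genes, and 2 genes (4.55%) had an unadjusted p under 0.05, against 27.2% of all genes. DESeq2 gave the same counts, 1 and 0. The IR effect on Tyms was smaller in libraries labelled Tet2-/- by a log2 difference of 0.87 (interaction −0.87, standard error 0.23, adjusted p = 0.0401). This call was lost in 14 of the 21 alternative settings, with adjusted p from 0.00285 to 0.165, and its direction held in all of them. The median interaction was −0.0040 for S phase genes and −0.39 for mitosis genes, against 0.10 for all genes, and 23 of 25 mitosis genes had a negative value.

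**Figure D3:**
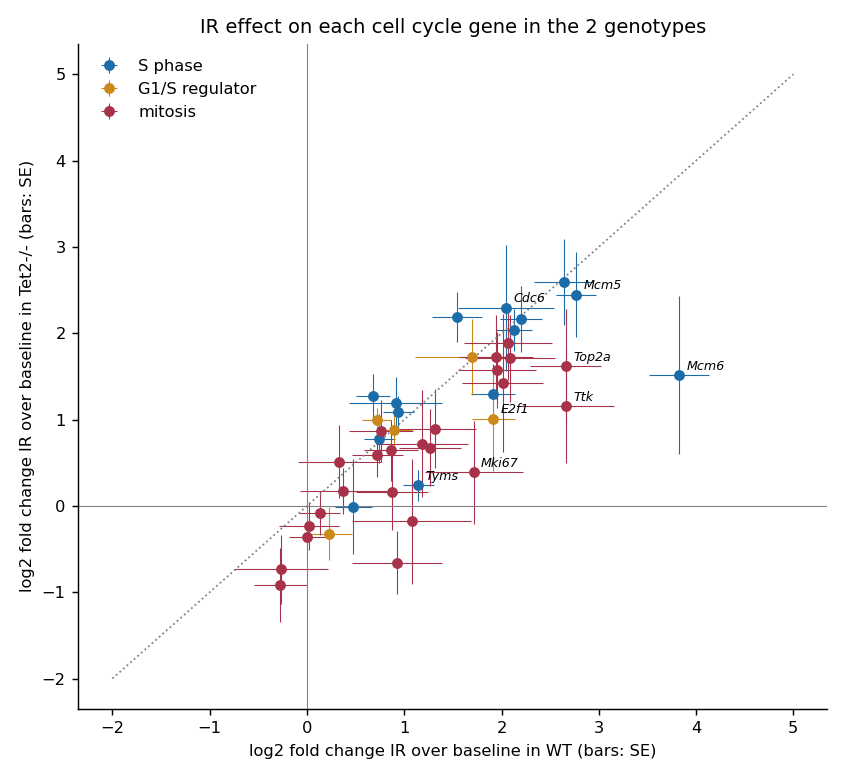
IR effect on each gene as a log2 fold change over baseline in WT (x axis) and in libraries labelled Tet2-/- (y axis), with bars for 1 standard error and a dotted line where both are equal. Most S phase genes (blue) lie near the line, Mcm6, Ttk, Top2a and Mki67 lie well below it, and error bars are wide for mitosis genes (red).

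The genotypes were also compared directly. At baseline 0 of 43 genes passed in either direction with edgeR, against 0.0124% higher and 0.0% lower over all 16086 genes; 13 of the 43 (30.2%) had an unadjusted p under 0.05, against 11.8% of all genes, and DESeq2 called 2 higher, Mcm6 and Ccnb2, a B-type cyclin, against 0.143% of all genes higher and 1.85% lower. Without WT baseline replicates 2 and 3, 1 WT library was left, taken to vary like the Tet2-/- baseline libraries, and 2 of all 16469 genes passed, so that the 0 of 44 there says nothing about these genes. In that fit 4 of 44 (9.09%) had an unadjusted p under 0.05, against 8.05% of all genes, and the medians were −0.04 for S phase and 0.72 for mitosis. The median log2 difference was 0.76 for mitosis genes and 0.10 for S phase genes, against 0.0040 for all genes, and 22 of 24 mitosis genes were positive. Libraries labelled Tet2-/- lay above WT without overlap for 12 genes, 10 of them in mitosis, and below for 2 in S phase, against 7.93% above and 10.8% below over all genes. Ccnb2 was at 0.194, 0.274 and 0.188 FPKM in WT and 0.379, 0.818 and 0.524 FPKM in libraries labelled Tet2-/- (log2 1.48, standard error 0.37, adjusted p = 0.242). Foxm1 was likewise separated (log2 0.77, standard error 0.21, adjusted p = 0.265). Rrm1 and Mcm4 lay below WT, at log2 −0.60 and −0.54. None of these differences passed the test.

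Mcm6 stood apart at baseline. Its FPKM was 0.231, 0.276 and 0.172 in WT, and 0.236, 1.92 and 2.60 in libraries labelled Tet2-/-, so replicate 1 was at the WT level and replicates 2 and 3 were well above it. The log2 difference of 2.91 had a standard error of 0.76 and an adjusted p of 0.257. The second transcript of Mcm6 in the files showed the same split, at 0.333, 2.74 and 3.78 FPKM. The other 5 helicase subunits did not share it, and their highest baseline log2 difference was 0.27 (Mcm5). In Tet2-/- IR libraries Mcm6 was at 1.65, 12.4 and 2.96 FPKM and overlapped with its baseline, so the IR effect there was 1.51 with a standard error of 0.92.

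After IR the genotypes differed in 0 of 44 genes by either tool, while 2.3% of all 16186 genes were higher and 3.85% lower in libraries labelled Tet2-/-, and 2 of the 44 (4.55%) had an unadjusted p under 0.05, against 28.9% of all genes. The median log2 difference was 0.02 for S phase genes and 0.10 for mitosis genes, against 0.04 for all genes. By TMM-scaled counts, libraries labelled Tet2-/- lay above WT for 2 genes, Cdk2 and Foxm1, and below for 1, Tyms, against 17.5% above and 18.5% below over all genes. Cdk2 had the smallest adjusted p, 0.0535 at a log2 difference of 0.56 (standard error 0.14), and Tyms followed with 0.0584 at −0.72 (standard error 0.19). Without Tet2-/- IR replicate 2, the median for S phase genes was −0.43 and for mitosis genes −0.21. Of the 44 genes 0 were called in any alternative setting, also without Tet2-/- IR replicate 3, the library high in adipocyte markers. In the fit without replicate 3, 1.27% of all genes were higher and 2.68% lower. Neutrophil markers summed to 4.09 to 9.53 FPKM in WT IR and 74.7 to 133 FPKM in Tet2-/- IR libraries, and macrophage markers to 29.6 to 53.3 and 56.8 to 105 FPKM. Of the 8 macrophage markers 2 (Cd14 and Itgam) were above WT without overlap and the other 6 overlapped, among them Csf1r at log2 −1.07. The part of either in the cell cycle genes was not tested. Proximal tubule markers summed to 1662 to 2321 FPKM in WT IR and 629 to 922 FPKM in Tet2-/- IR libraries, and their part was not tested either.

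S phase and mitosis genes were also set against each other in each library. The class level is the mean of log2(FPKM + 0.1) over the genes of a class. S phase genes were at 0.985, 1.06 and 0.691 in WT baseline and 2.37, 2.89 and 2.44 in WT IR libraries, while mitosis genes were at −1.44, −1.29 and −1.78 and then −0.848, −0.375 and −1.06. Both classes were higher in all IR libraries than in any baseline library. In libraries labelled Tet2-/-, S phase genes were at 0.766, 1.01 and 1.21 at baseline and 1.89, 3.43 and 2.32 after IR. Mitosis genes were at −1.31, −0.910 and −1.12 and then −0.953, 0.0734 and −0.804, and only this class overlapped, since replicate 1 after IR was lower than replicate 2 at baseline. The level of S phase genes minus that of mitosis genes was 2.41 ± 0.0644 in WT baseline and 3.33 ± 0.154 in WT IR libraries (SD, n = 3). In libraries labelled Tet2-/- it was 2.11 ± 0.211 and 3.10 ± 0.256 (SD, n = 3), and in both genotypes every IR library lay above every baseline library. With log2(FPKM + 0.01), which compresses low genes less, the same held, and the differences were 2.97 and 3.67 (mean, n = 3) in WT and 2.46 and 3.41 in Tet2-/-. G1/S regulators were at 1.04 ± 0.215 and 2.08 ± 0.308 in WT and 1.32 ± 0.0577 and 2.25 ± 0.601 in libraries labelled Tet2-/-. Among S phase genes, the 6 with E2F letters in the promoter had a median log2 IR effect of 2.42 in WT (0.74 to 3.82) and the 6 without of 0.92 (0.48 to 2.12), ranges that overlap, and 4 of the 6 are MCM subunits. In Tet2-/- libraries the medians were 2.23 and 1.14. Mitosis genes with CHR letters (14) had a median of 1.13 in WT (−0.26 to 2.66) and 0.66 in Tet2-/- (−0.73 to 1.71), and those without (5) of 0.87 (−0.27 to 2.01) and 0.16 (−0.92 to 1.72), ranges that overlap.

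**Figure D4:**
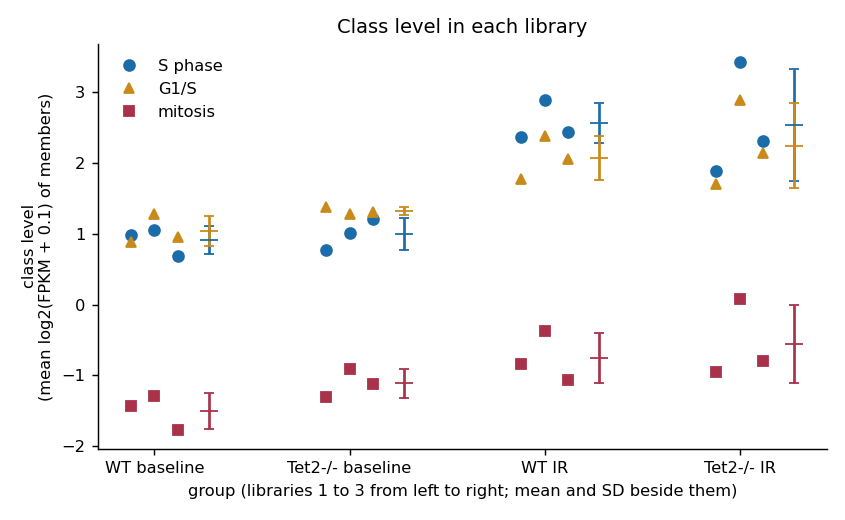
Class level (y axis, mean log2(FPKM + 0.1) over the genes of a class) in each library of the 4 groups (x axis), with mean and SD beside the points. S phase genes (blue) have mean levels of 0.911 and 0.997 at baseline and 2.57 and 2.54 after IR in WT and Tet2-/-, mitosis genes (red) reach at most 0.0734, and Tet2-/- IR replicate 2 is the highest IR library for all 3 classes.

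Other genes of the cycle were followed with 7 lists of 119 genes in all. After IR 19 of 113 tested were higher and none was lower in WT, and 37 of 114 were higher and 2 lower in libraries labelled Tet2-/-. The shares over all genes were 1.46% higher and 0.887% lower in WT and 12.7% higher and 11.6% lower in Tet2-/-, and a list with few called genes in Tet2-/- is near that share. Without the libraries high in adipocyte markers 0 of 114 were called in WT, in the fit with 1 baseline library in which 1 gene of all passed. In WT the 19 became 2, 4 and 1 without baseline replicate 1, 2 or 3, 2 and 4 without IR replicate 2 or 3, 37 with DESeq2 and 34 with the replicate block, each of these with 1 lower. In Tet2-/- leaving out 1 library gave 23 to 41 higher and 0 to 4 lower, with 23 higher without baseline replicate 1 or 3. Uhrf1, which marks newly copied DNA for methylation, rose the most among replication fork genes in both, with log2 fold changes of 4.08 (adjusted p = 0.00842) and 3.82 (adjusted p = 0.00173). Pole, a replicative polymerase, rose by 2.36 and 2.16. In that list 8 of 22 genes were higher in WT and 10 in Tet2-/-, and none was lower in either. Of 15 origin licensing and firing genes 3 were higher in WT, and 3 were higher and 1 lower in Tet2-/-. Orc1, which marks origins, rose by 2.45 and 2.78 and Gins1 by 1.62 and 1.28, and the kinase Cdc7 rose by 1.87 in Tet2-/- (1.14 in WT, adjusted p = 0.158), while Mcm10 fell by 1.17 there.

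Of the 15 kinetochore and checkpoint genes tested 2 were higher in WT and 4 in Tet2-/-. Cenph rose by 2.80 and 1.995. Spc24 rose by 2.15 in WT (0.78 in Tet2-/-, adjusted p = 0.187), and Cenpi by 1.79 in Tet2-/- (2.17 in WT, adjusted p = 0.0776). Of the 27 spindle and cytokinesis genes 5 were higher in WT, and 10 were higher and 1 lower in Tet2-/-. Dlgap5 rose by 2.91 and 2.47, Ckap2 by 2.45 and 1.33 and Anln, which builds the cleavage furrow, by 2.35 and 2.44, while Ube2c, which tags cyclins for degradation, fell by 1.63 there. Of 11 other cyclins and CDKs tested none was higher in WT and 5 were in Tet2-/-, among them Ccnf (1.84, and 1.64 in WT with an adjusted p of 0.0955) and Cks1b (1.75, and 1.31 in WT with an adjusted p of 0.0595). E2f3 rose in both genotypes, by 1.20 and 1.17, and E2f7, a repressor, by 1.72 in Tet2-/- (2.44 in WT, adjusted p = 0.0753). Among the E2F, RB and DREAM factors tested 1 of 16 passed in WT and 3 of 17 in Tet2-/-.

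The CDK inhibitor Cdkn1a (p21), which holds the cycle in G1, was at 6.23, 14.2 and 3.16 FPKM in WT baseline and 7.46, 20.4 and 24.7 FPKM in WT IR libraries, with overlap (log2 1.13, adjusted p = 0.329). In libraries labelled Tet2-/- it went from 5.87, 3.56 and 7.08 FPKM to 101, 60.7 and 102 FPKM (log2 3.75, standard error 0.35, adjusted p = 0.000304). It was also higher in Tet2-/- than in WT IR libraries, without overlap (log2 2.22, standard error 0.49, adjusted p = 0.0362). This call was lost in each of the 6 fits without 1 IR library, with log2 differences of 1.86 to 2.64 and adjusted p of 0.0529 to 0.097 (edgeR). With all libraries Cdkn1a was the 1 gene of the 7 lists called between genotypes after IR, DESeq2 called 2 higher, and without IR replicate 2 of either genotype 1 other gene was lower. Its interaction was 2.67 (standard error 0.78, adjusted p = 0.0541). Cdkn1c (p57) passed in Tet2-/- (1.38, adjusted p = 0.0126), and of the 7 CDK inhibitors tested none passed in WT.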

How the data were processed

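Whole-kidney RNA-seq of 12 libraries was used, 3 in each of 4 groups assigned from the labels. Per the labels and the study's methods, the authors aligned reads with STAR to mm9 and counted and scaled them per RefSeq transcript with HOMER, and versions are not given in the sources used here. The deposited expected counts come in steps of 0.5 (38.7% of values are not whole) and were rounded. The deposited FPKM values were used for levels. For each of 24421 symbols, the transcript with the highest total count of 34600 was kept, which gave 51007366 to 107969888 counts per library.

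Each pair of groups, and all 12 libraries for the interaction, were fitted with edgeR 4.0.16 in R 4.3.3 (TMM scaling, filterByExpr, quasi-likelihood test, Benjamini-Hochberg adjustment over all genes tested), called at adjusted p under 0.05 and, except for the interaction, an absolute log2 fold change over 1. The code was tested on simulated data. Alternatives were DESeq2 1.42.0, other scalings and filters, limma 3.58.1 on log2(FPKM + 1) and log2(FPKM + 0.1), a replicate block, and each library left out. Leaving out the libraries with adipocyte markers over 20 FPKM, and log2(FPKM + 0.01) for class levels, were added after the data were seen.

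Replicate numbers came from the labels. Deviations of same-numbered baseline and IR libraries correlated at 0.349, 0.349 and 0.344 in WT and 0.120, 0.350 and 0.202 in Tet2-/-. Between genotypes the correlations were −0.173, −0.150 and 0.0524 at baseline, and −0.00023, 0.206 and 0.303 after IR. The design names no pairs, and the main fits are unpaired. The replicate block was run as an alternative only.

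The genes and lists were chosen with earlier results of these data known. All 44 genes are accounted for. A gene of the other lists is not reported here and is left out of their counts. Values in every library are given for a fixed set of well-known members and for the called members with the largest change in each class, and of the other lists up to 2 genes per direction with the largest change are named.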

Additional observations from a re-analysis of the deposited data

Results flagged for a closer look

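By the interaction term over all 12 libraries (edgeR, adjusted p under 0.05), 5 genes of the cell cycle were called. These were Tyms, the 1 called of 44 genes, and 4 of the 114 genes tested in the other lists, 2 higher and 2 lower. The values are the log2 IR effect in libraries labelled Tet2-/- minus that in WT. Over all genes the shares were 3.79% higher and 5.39% lower. In neither direction were the cell cycle genes called more often than that, so the calls do not set them apart from other genes. Tyms was at −0.87 (adjusted p = 0.0401), a call lost in 14 of 21 alternatives. Ccnd3, a D-type cyclin, was at −0.89 (adjusted p = 0.0307) and Cks2, a CDK-binding protein, at −1.23 (adjusted p = 0.0278). Cdc25a, a phosphatase that activates CDKs, was at 0.74 (adjusted p = 0.0478) and E2f4, a mostly repressive E2F factor, at 0.77 (adjusted p = 0.0409). The call was lost in 11 of 21 alternatives for Ccnd3 and for E2f4, in 14 for Cdc25a and in 6 for Cks2, and the direction held in all 21. Without the libraries high in adipocyte markers none of the 5 was called, and 0 of all 17182 genes were higher and 3 lower. With 3 libraries per group, single libraries were not tested as outliers.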

How the results depend on the processing

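Among the 44 genes, no called gene reversed its direction in any alternative. With DESeq2, 2 genes were higher at baseline between genotypes and 20 were higher after IR in WT, and with the replicate block 20 were higher after IR in WT. Among the 44 genes the block changed no other count by over 1.5 times (17 in Tet2-/-, 1 in the interaction, 0 between genotypes), and in the 7 other lists it moved the calls after IR in WT from 19 to 34 and the interaction calls from 2 higher and 2 lower to 4 and 4. Leaving out each library in turn gave 0 to 1 genes higher at baseline between genotypes, 4 to 14 higher after IR in WT, 7 to 19 higher and 0 to 2 lower in Tet2-/-, and 0 to 2 with a negative interaction. Without the libraries high in adipocyte markers, 0 genes were called after IR in WT and 0 in the interaction, with fewer samples. The interaction count was also 0 with library sizes alone, with no filter and with limma at either pseudocount. With genes of a mean FPKM of at least 1, 9 were higher after IR in Tet2-/-, since fewer genes were tested.

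The median for mitosis genes was 0.38, 0.11 and 0.033 at a mean FPKM of at least 1 (genotype at baseline, IR in WT, IR in Tet2-/-), and 0.13, 0.23 and 0.16 on log2(FPKM + 1), which understates low genes. The filter on mean FPKM keeps a small part of this class. Of 25 mitosis genes, 2 had a group mean of at least 1 FPKM in WT baseline and 4 in WT IR libraries. In Tet2-/- baseline and IR libraries 3 and 8 did. The mitosis median was 0.41 on log2(FPKM + 0.1) for the genotype at baseline and −0.022 on log2(FPKM + 1) for the interaction. The S phase median after IR in WT was 1.06 on log2(FPKM + 1). With each library left out, the mitosis median ran from 0.49 to 0.92 at baseline, 0.74 to 1.35 after IR in WT, 0.015 to 0.84 in Tet2-/- and −0.81 to −0.18 for the interaction, and the S phase median of the interaction from −0.58 to 0.25. The cause was not tested where none is named. Scaling by library sizes alone moved the median of all genes after IR in Tet2-/- from 0.04 to 0.27, and the S phase median relative to it was 1.36 and 1.40. Mitosis genes had lower FPKM, fewer counts and wider errors than S phase genes, and the part of this in how the medians moved was not tested.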
